A study of Mus musculus with 165 samples.

Results

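The genes described here encode the proteins of the cytosolic ribosome. They were the rows of a mouse gene table whose symbol was Rpl or Rps followed by a number and at most 1 letter, or Rplp0, Rplp1, Rplp2 or Rpsa, with pseudogenes left out. This rule, which used no measured value, found 83 of the 36255 genes in the table, 32 named Rps, for the small subunit, and 51 named Rpl, for the large subunit. They were followed in PUER cells, an established line of myeloid progenitors from Spi1-/- mice. These cells lack PU.1, the transcription factor that Spi1 encodes, and carry in its place PU.1 joined to the hormone-binding part of the estrogen receptor. 4-hydroxytamoxifen (OHT) switches this fusion on. Undifferentiated cells were kept in IL3 with no OHT and were the start of the macrophage course, in which IL3 stayed in the medium and OHT was added at 200 nM (IL3-OHT). For the neutrophil course the same cells were first washed and held for 48 h with GCSF in place of IL3 (GCSF 0h, no OHT). They were then given OHT at 100 nM in GCSF (GCSF-OHT). In each course RNA was sequenced at 27 time points, the first 1h and the last 168h after OHT. Every group shares the Spi1-/- background and the fusion protein, all came from 1 cell line, and the cytokine, the pre-treatment and the OHT dose change together, so that they cannot be told apart.

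A ribosome is built of a small subunit, which reads the mRNA, and a large subunit, which joins amino acids, and each is a body of ribosomal RNA covered with proteins. Nearly every cell makes these proteins in equal numbers and in bulk, and their mRNAs are among the most abundant of a growing cell. Most of these mRNAs begin with a C and a run of pyrimidines, the 5′ terminal oligopyrimidine (TOP) motif, through which their translation and stability follow nutrient and growth factor signals. Blood progenitors are known to depend on full ribosomal protein dosage, and mutations of several of the genes cause Diamond-Blackfan anaemia, a failure of red cell production.

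The libraries made 56 groups. There were 3 replicates in 53 of them, and 2 in GCSF-OHT 96h, GCSF-OHT 112h and GCSF-OHT 152h. A library held a median of 21960878 reads on genes, the smallest 14600246 and the largest 33147945. A value here is a normalized count, the reads of a gene divided by the library's size factor, and 3 reads, the smallest number read as above 0, corresponded to a normalized count of 1.96 to 5.51. This floor covers counting error only. Spi1 itself had a normalized count of 4482 to 13387 in every library, and since the fusion carries PU.1 sequence this does not check the deletion. Markers of other cell types were read beside the course: the summed normalized count of 12 neutrophil genes ran from 336630 to 343580 in undifferentiated cells, from 469790 to 528590 at GCSF 0h, from 272390 to 305110 at IL3-OHT 168h and from 756230 to 804180 at GCSF-OHT 168h. That of 8 macrophage genes ran from 12737 to 13797 at IL3-OHT 168h, from 8768 to 9913 at GCSF-OHT 168h, from 2717 to 2989 in undifferentiated cells and from 874 to 1164 at GCSF 0h, where 4 of the 8 were under the floor. The haemoglobin genes Hba-a1, Hba-a2, Hbb-bs and Hbb-bt, the eosinophil genes Epx, Siglecf and Il5ra, and the lymphocyte genes Cd3e, Cd3g and Ms4a1 were under the floor in all 4 of these groups. Of 7 progenitor genes Cd34 was under the floor in all 4 groups and Gata2 at both ends, and the summed normalized count of the 7 ran from 12862 to 14166 in undifferentiated cells, from 14805 to 14980 at GCSF 0h, from 5316 to 5535 at IL3-OHT 168h and from 7473 to 7568 at GCSF-OHT 168h. Each time point had its own culture plate, so plate and time cannot be told apart, and the 6 libraries of 120h carry another prefix in their names than the rest. No time point after 0h was sampled without OHT, so OHT and time in culture cannot be told apart either. Cells of all time points after 24h were detached with trypsin, so that later and earlier samples differ in this as well. These are bulk samples, in which fewer cells of a type and less RNA per cell cannot be told apart.

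Of the 83 genes, 81 passed the filter on low values (some fitted library had to reach a normalized count of 5). Rpl10l, a gene of the testis in other work, and Rps4l did not pass. The 83 genes lay on 19 chromosomes, and 80 were annotated as coding, while Rps4l, Rpl32l and Rpl6l were annotated as pseudogenes in spite of their names. Most of the genes were highly expressed. Of the coding genes tested, 54 had a mean normalized count of at least 10000. Divided by transcript length, the level was highest for Rpl41, which encodes the shortest protein of the ribosome, with a mean normalized count per kb of 81555, followed by the stalk gene Rplp1 with 53210. The median over coding genes was 20429 per kb. The lowest were Rpl3l with 9.53 per kb and Rpl39l with 150 per kb, which encode tissue-restricted relatives of Rpl3 and Rpl39. The replicates of a group lay close together, with a median SD of 0.0612 on the log2 scale against 0.112 for all genes tested.

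Ribosomal protein genes have many processed copies in the mouse genome, and short reads cannot always place a transcript on the gene or its copy. By sequence or name, 1075 copies were matched, to 77 of the 80 coding genes, and 10.3% of the reads on genes and copies together lay on copies (9.09% to 11.6% per library). Most of these reads lay on a copy for several genes, with 96.6% for Rpl5, 96.4% for Rps13, 94% for Rpl12, 83.5% for Rps27, 79.3% for Rpl10 and 55.8% for Rpl27a. The values of these genes are uncertain for that reason. For 62 genes the copies took under 5%.

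The sequences around the annotated start of 7 of the genes are shown because the first bases of these mRNAs set whether they carry the TOP motif. Each window holds 30 bases before the annotated start and 20 from it, 5′ to 3′ on the gene's strand, from RefSeq on GRCm38.p6. Capitals mark the annotated first base and, where it is a C followed by at least 4 pyrimidines, the whole pyrimidine run. Rps6 lies at chr4:86857348-86857397 on the minus strand, Rpl38 at chr11:114668550-114668599 on the plus strand, Rplp2 at chr7:141447621-141447670 on the plus strand and Rps27 at chr3:90213629-90213678 on the minus strand. These 4 open with a pyrimidine run. Rplp0 lies at chr5:115559437-115559486 on the plus strand, Rpl41 at chr10:128549149-128549198 on the minus strand and Rpl39l at chr16:10170198-10170247 on the plus strand. These open with a G at the annotated base.
Rps6: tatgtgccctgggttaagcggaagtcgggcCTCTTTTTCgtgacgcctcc
Rpl38: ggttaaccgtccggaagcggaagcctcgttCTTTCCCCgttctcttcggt
Rplp2: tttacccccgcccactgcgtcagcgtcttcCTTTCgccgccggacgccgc
Rps27: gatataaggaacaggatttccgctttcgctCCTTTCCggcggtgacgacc
Rplp0: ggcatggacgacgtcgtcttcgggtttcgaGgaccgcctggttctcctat
Rpl41: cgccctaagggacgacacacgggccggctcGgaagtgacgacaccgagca
Rpl39l: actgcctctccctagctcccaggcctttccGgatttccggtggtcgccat

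A start sequence was used for 60 coding genes of the set. Genes on chromosome 18, in the set Rps14 and Rpl17, were left out of these counts. A C followed by at least 4 pyrimidines stood at the annotated start of 13 of the 60 (21.7%), of 2.91% of the 11654 genes tested that had a start sequence, and of 0 of 66 mitochondrial ribosomal protein genes. The annotated base is often some bases off the base used in cells, and in a wider window, within 50 bases of the start on the gene's strand, CTTTCC stood in 31.7% of the 60 genes and in 5.32% of the genes tested. CCGGAAG on either strand, the core of ETS family sites, stood in 41.7% of the 60 genes, in 34.8% of the mitochondrial ribosomal protein genes and in 17.9% of the genes tested, over the 300 bases around the start. AAGATGG, the core of YY1 sites, stood in 15% against 7.95%, TATAAA in 8.33% against 6.40%, and CACGTG, the E-box that MYC and its partners recognise, in 10.0% against 10.9%. In the mitochondrial ribosomal protein genes AAGATGG stood in 18.2%, more than in the set, and TATAAA and CACGTG in 6.06% each. These are matches of letters and not sites shown to be bound.

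The 2 courses went apart. The plot of levels by time follows the median log2 level of the 81 genes, each gene taken relative to its mean in undifferentiated cells. In IL3-OHT it stood at 0.08 ± 0.007 (SD, n = 3) at 1h, fell to −0.53 ± 0.07 at 24h, stood at −0.25 at 72h, reached 0.28 ± 0.06 at 136h and ended at 0.13 ± 0.02 at 168h. In the neutrophil course it was already at −0.69 ± 0.05 at GCSF 0h, stood at −0.42 ± 0.03 at 1h after OHT and ended at −1.16 ± 0.07 at 168h.

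**Figure D1:**
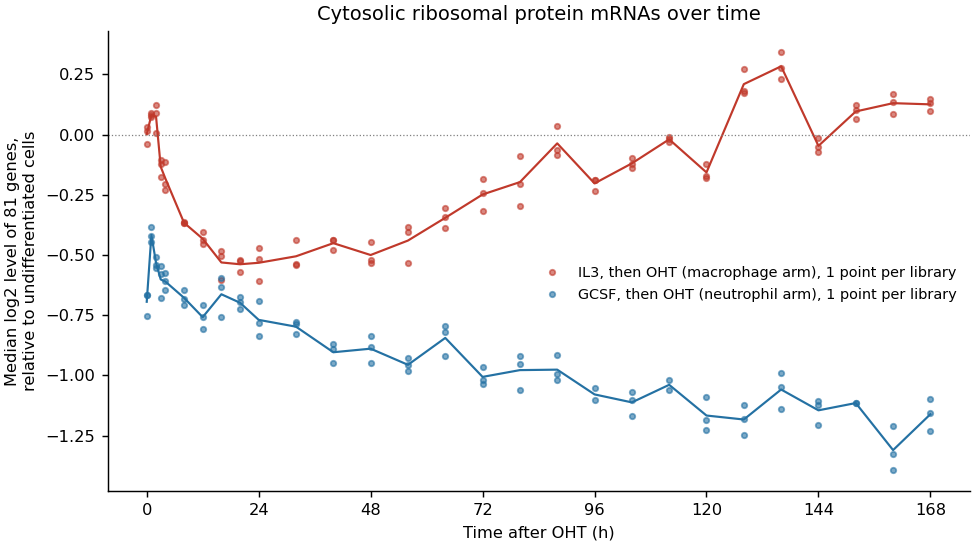
The median log2 level of the 81 cytosolic ribosomal protein genes relative to undifferentiated cells (y axis) against hours after OHT (x axis), with 1 point per library and a line through the group means of each course. The IL3-OHT line dips to about −0.53 at 24h and lies near or above 0 after 120h, while the GCSF line starts at −0.69 and ends at −1.16.

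The share of all reads on genes that these mRNAs took followed the same order. It was 7.19% ± 0.10 in undifferentiated cells, 5.39% ± 0.15 at GCSF 0h, 5.56% ± 0.21 at IL3-OHT 24h, 7.52% ± 0.09 at IL3-OHT 168h and 3.28% ± 0.13 at GCSF-OHT 168h (SD, n = 3 in each). Over all libraries it ran from 2.93% to 7.78%. The share of reads taken by the 10 highest genes of each library moved as well, from 7.62% in undifferentiated cells and 4.96% at GCSF 0h to 11% at IL3-OHT 168h and 12.3% at GCSF-OHT 168h.

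The first comparison asked what the GCSF pre-treatment did, before OHT. GCSF replaced IL3 in it, so that the presence of GCSF and the loss of IL3 cannot be told apart. Ribosomal protein genes fell together. Rps6, whose product is the target of S6 kinase, had normalized counts of 25935, 27791 and 27131 in undifferentiated cells and of 16155, 15653 and 16727 at GCSF 0h. Rpl13a had 55244, 55415 and 56951 before and 32041, 29326 and 30018 after. Rpl22, whose product also binds small structured RNAs, had 10042, 10444 and 10680 before and 4964, 4578 and 4620 after. All 3 GCSF 0h libraries lay below all 3 undifferentiated libraries for each of these genes. The log2 fold change, taken on log2(normalized count + 1) as everywhere below, was −0.74 for Rps6 (SE 0.047, limma adjusted p = 1.38e-28), −0.88 for Rpl13a (SE 0.066, adjusted p = 1.16e-23) and −1.14 for Rpl22 (SE 0.063, adjusted p = 9.68e-34). A gene was called where the limma adjusted p, over all 17414 genes tested, was under 0.05 and the log2 change was over 0.58 either way.

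By this rule 65 of the 81 genes were called lower at GCSF 0h than in undifferentiated cells, where 20.7% of all genes tested were called lower, and 1 was called higher, where 13.0% were. By the adjusted p alone, 76 were lower and 2 higher (31.9% and 25.3% of all genes). The median log2 change of the 81 genes was −0.69, a median loss of 38%, against −0.09 over all genes, and the small subunit (31 genes, median −0.70) and the large subunit (50 genes, −0.68) fell alike. Groups did not overlap for 77 of the 81 genes, 76 with all GCSF 0h libraries lower and 1 with all higher, where 34.6% of genes tested were lower in this way and 27.5% higher. The size of this fall depends on how libraries are scaled. With every library scaled to the same total of reads, the median of all genes moved from −0.09 to 0.12, 12 genes were called lower and 1 higher, where 15.6% of all genes were called lower and 21.3% higher, and the median of the ribosomal protein genes was −0.43. The 12 are then no larger a share of the set than the genes called lower are of all genes. Relative to the median of all genes, they stood at −0.60 with the deposited scaling and at −0.55 with equal totals. Markers of other cell types moved in the pre-treatment as well. The summed normalized count of the 8 macrophage genes and that of 4 megakaryocyte genes, the latter from 320.2 to 408.1 in undifferentiated cells and from 65.2 to 84.1 at GCSF 0h, were lower in every library after it, and that of the 12 neutrophil genes was higher. Their part in the change of the ribosomal protein genes was not tested.

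The members with a known place or a further role were read one by one. In the stalk that draws translation factors to the large subunit, Rplp0 changed by −0.58, Rplp1 by −0.48 and Rplp2 by −0.76. Rpsa (−0.62) and Rps3 (−0.78) of the small subunit, Rpl5 (−0.64) and Rpl11 (−0.62), whose products can also bind Mdm2, and Rps27a (−0.78), which is made as a fusion with ubiquitin, passed the test too, as did Rps19 (−0.78), the gene most often mutated in Diamond-Blackfan anaemia, and Rps14 (−0.80). Among the lowest, Rpl24, whose product lies at the contact of the subunits, changed by −1.04, and Rpl6l by −1.24 (SE 0.46, adjusted p = 0.0163). Rpl6l is thinly read, with normalized counts of 30.1, 20.5 and 11.8 before and 11.1, 6.20 and 6.52 after, and it did not pass the test without replicate 1 (−1.17) or replicate 2 (−1.07).

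A few members stood outside this fall. Rpl3, whose product reaches toward the peptidyl transferase centre, had 20310, 21032 and 21842 in undifferentiated cells and 19321, 18837 and 19318 at GCSF 0h. These groups lay side by side without overlap, with a log2 change of −0.14 (SE 0.045, adjusted p = 0.00599), and the sign turned to 0.13 (adjusted p = 0.0104) with equal totals. Its relative Rpl3l, a gene of striated muscle in other work, rose from 3.93, 14.3 and 9.45 to 30.5, 31.9 and 26.1 (log2 change 1.72, SE 0.38, adjusted p = 4.02e-05). At 1h of OHT in GCSF the 3 libraries of Rpl3l stood at 77.3, 67.6 and 72.3, which is still far below any main member. Rps27l, a relative of Rps27 that p53 induces in other work, rose by 0.18 (adjusted p = 0.0159), which did not pass the test without replicate 1 (0.17) or replicate 2 (0.16), and Rps29 changed by −0.24 without passing the test (adjusted p = 0.216).

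**Figure D2:**
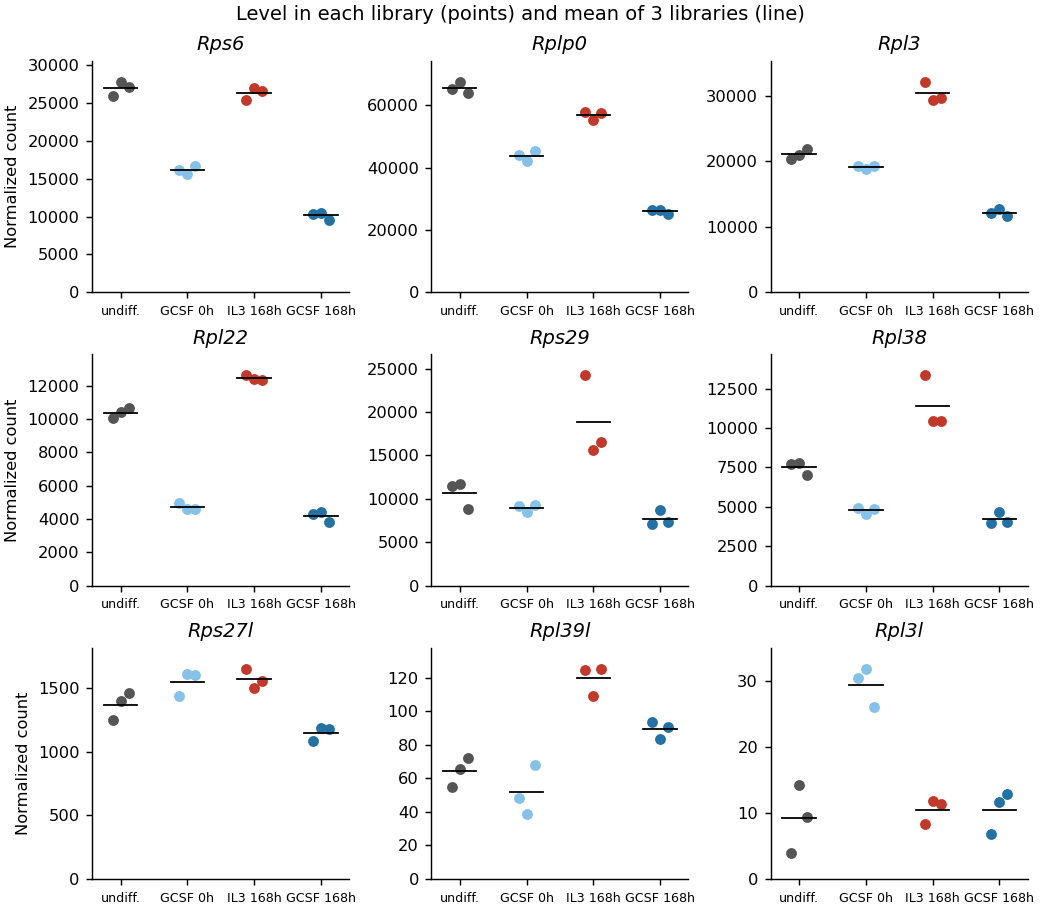
Normalized counts (y axis, from 0) of 9 of the genes in the libraries of undifferentiated cells, GCSF 0h, IL3-OHT 168h and GCSF-OHT 168h (x axis), with 1 point per library and a line at the mean of the 3. Rps6, Rplp0 and Rpl22 are lower at GCSF 0h than in undifferentiated cells and lowest at GCSF-OHT 168h. At IL3-OHT 168h Rps6 overlaps with undifferentiated cells, Rplp0 lies below them and Rpl22 above them, while Rpl3l peaks at GCSF 0h and Rpl39l at IL3-OHT 168h.

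The second question was how the genes changed after OHT was added in IL3, where OHT and time cannot be told apart. For the first hours the change was small. Against undifferentiated cells, 1 of the 81 genes was called higher at 1h and 0 lower (of all genes, 2.81% higher and 1.61% lower). In this first hour 77 of the 81 log2 changes lay above 0 (median 0.09, against 0.03 over all genes), but only 1 gene passed the adjusted p (9.57% of all genes were higher by it). The step from 2h to 3h was the first in which most of the genes passed the adjusted p. By it 55 genes fell (median −0.22, where 17.6% of all genes fell), and 45 fell from 4h to 8h (median −0.19, where 17.8% fell). Over 1h to 8h as a whole 0 genes were called either way, where 4.44% of all genes were called higher and 7.95% lower, and by the adjusted p alone 34 were lower and 2 higher (22.5% and 20.3% of all genes). By the unadjusted p under 0.05 these were 42 and 2, and edgeR and DESeq2 called 0 as well. Rpl17, which lines the tunnel through which new proteins leave, changed most among those that fell (−0.25, SE 0.052, adjusted p = 1.78e-05).

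From 12h to 72h the genes were low. Rps6 stood at 18702, 19431 and 19674 at IL3-OHT 24h, below all undifferentiated libraries. Rpl13a stood at 25764, 27860 and 31080 at 24h, against 55244, 55415 and 56951 in undifferentiated cells. The groups were apart for both genes. Over 12h to 72h the log2 change from undifferentiated cells was −0.42 for Rps6 (SE 0.035, adjusted p = 1.58e-20) and −0.78 for Rpl13a (SE 0.049, adjusted p = 1.68e-29). Of the 81 genes 22 were called lower and 0 higher, where 18.4% of all genes were called lower and 11.4% higher, and 27.2% of the set against 29.9% of all genes were called either way. By the adjusted p alone 69 were lower and 4 higher (32.6% and 28.2% of all genes). The median was −0.45, against −0.05 over all genes. With equal totals 11 genes were called lower, a smaller share than over all genes (15.4%), and the median was −0.34, against 0.05 over all genes. At 24h all 3 libraries lay below all undifferentiated libraries for 70 of the 81 genes, where this held for 31.4% of all genes.

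The members did not fall evenly in this window. Rps27 fell most (−1.02, SE 0.16, adjusted p = 2.67e-08), from 2927, 3316 and 2879 to 1378, 1762 and 1905 at 24h, and most reads of this gene and its copies lie on a copy. With the reads of copies added to their genes, the lowest change of any member in this window was −0.85. Rps14 changed by −0.81 and Rps7 by −0.78. Rpl3 went the other way by 0.25 (SE 0.033, adjusted p = 7.59e-11), with 21450, 23287 and 24562 at 24h, which overlap with undifferentiated cells. Rps27l rose by 0.38 (SE 0.049, adjusted p = 2.26e-11), with 1819, 1668 and 1860 at 24h against 1254, 1399 and 1464, and Rpl39l by 0.43 (adjusted p = 0.00352), which did not pass the test without replicate 1 (0.32). Rpl41 also rose, by 0.22 (adjusted p = 0.00245), while Rpl38 (−0.05, adjusted p = 0.634) and Rps29 (0.05, adjusted p = 0.751) did not pass the test.

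Some of the steps in this window lie at a border in the numbering of the libraries. The labels give each library a running number, and a run of 36 libraries in 12 groups that starts at number 61 holds IL3-OHT 16h to 48h and GCSF-OHT 20h to 56h. This run begins and ends at different times in the courses, which gives 4 borders. Rps14, of the small subunit, had 27247, 26479 and 28078 at IL3-OHT 12h and 19853, 22255 and 20798 at 16h, the first inside the run. It had 20960, 20275 and 19960 at 48h and 26190, 28702 and 24847 at 56h, the first after it. In GCSF it had 24930, 22469 and 24606 at 16h and 19112, 20059 and 19367 at 20h, and it went from 14229, 16598 and 13868 at 56h to 20002, 18735 and 17954 at 64h. The libraries inside the run lay below those just outside it at each border. The log2 steps of Rps14 were −0.38 (adjusted p = 1.88e-06), −0.30 (adjusted p = 0.00121), 0.38 (adjusted p = 2.23e-06) and 0.35 (adjusted p = 0.000278). In all, 7 of the 81 genes (Rpl34, Rplp1, Rplp2, Rps14, Rps18, Rps19 and Rps25) were lower inside the run at all 4 borders by the adjusted p, where 18 of all genes (0.103%) were lower in this way and 8 (0.0459%) higher. This set of borders was chosen after the values had been seen. Within a course, library number and time cannot be told apart, and what the numbering stands for is not given in the sources used here. With the libraries of this run left out, the median change over 12h to 72h in IL3 was −0.37, and 9 genes were called lower, a smaller share than over all genes (3115 of 17298).

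The level in IL3 was already coming back before 72h, and this went on after it. The median relative to undifferentiated cells was −0.50 at 48h, −0.35 at 64h, −0.25 at 72h and −0.04 at 88h. The step from 120h to 128h was the largest, with 73 genes higher and 0 lower by the adjusted p alone (median 0.36, where 10.1% of all genes were higher), but the libraries of 120h are those with the other prefix, and from 112h to 128h directly 60 were higher and 1 lower, with a median of 0.24 (8.85% and 9.26% of all genes). At 136h Rps6 stood at 31970, 34364 and 29996, above every undifferentiated library, and 65 genes were higher than in undifferentiated cells by the adjusted p alone (median 0.29, where 26.1% of all genes were). From 136h to 152h 43 fell again (median −0.18, where 21.0% fell). Over 80h to 168h 1 gene was called higher, Rpl39l, and 0 lower, where 11.7% of all genes were called higher and 19.5% lower. By the adjusted p alone 22 were higher and 14 lower (27.2% and 33.7% of all genes), with a median of 0.04, against −0.06 over all genes. This median was −0.05 with equal totals, under which that of all genes was −0.14.

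**Figure D3:**
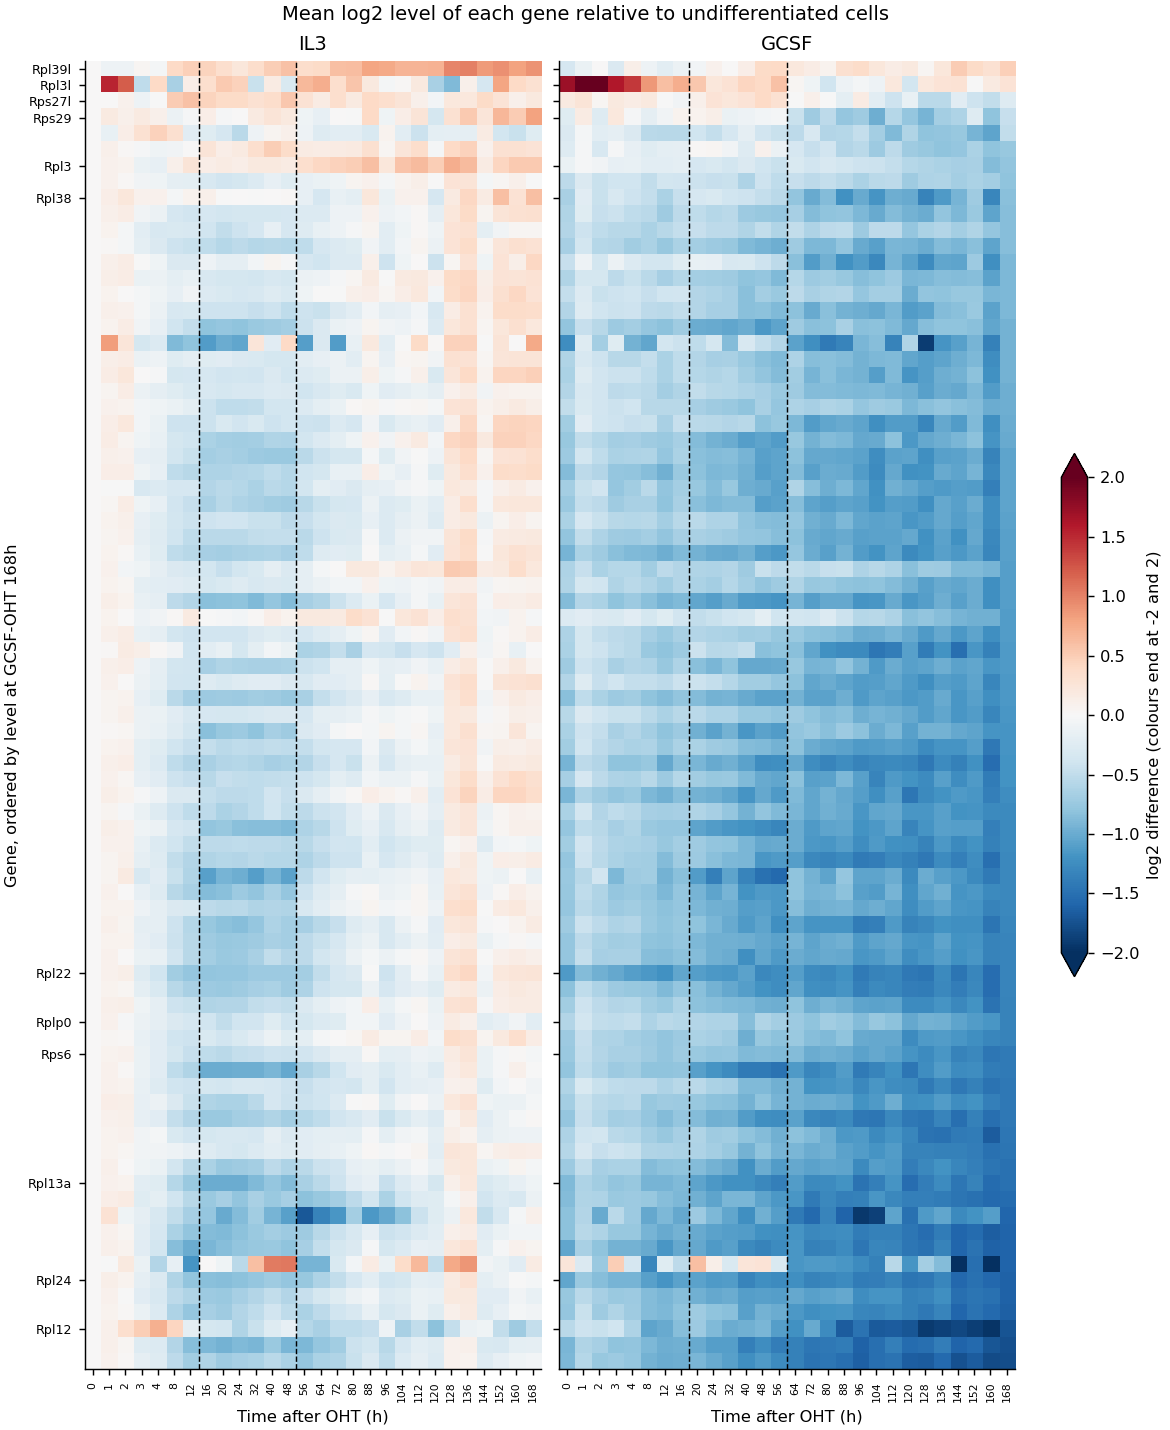
Mean log2 level of each of the 81 genes (rows, a few of them named) relative to undifferentiated cells (colour, ends at −2 and 2) at each time point (columns) of the IL3-OHT and the GCSF course, the rows ordered by their level at GCSF-OHT 168h. The excluded groups IL3-OHT 96h and IL3-OHT 144h are drawn too. Dashed lines mark the borders of the run of libraries that starts at number 61. In IL3 most rows lie below 0 from 3h to 80h and above 0 at 128h, 136h and from 152h on. In GCSF most rows lie below 0 at every time point and are higher at 1h than at 0h, with the darkest colours late in the course.

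At 168h in IL3, the end of the macrophage course, the genes were near their starting level. Rps6 stood at 25357, 27039 and 26554, which overlaps with the undifferentiated libraries, with a log2 change of −0.03 (SE 0.047, adjusted p = 0.584). Rpl22 stood at 12612, 12384 and 12322, above all undifferentiated libraries (0.26, SE 0.063, adjusted p = 0.000215). Rplp0 stayed slightly lower, at 58005, 55265 and 57451 against 65341, 67521 and 63866 (−0.20, SE 0.051, adjusted p = 0.000365), while Rplp2, its partner in the stalk, was higher at 28833, 28657 and 29841 against 21146, 22009 and 22425 (0.41, SE 0.057, adjusted p = 2.63e-10). Of the 81 genes 3 were called higher and 0 lower (10.2% and 15.2% of all genes). By the adjusted p alone 38 were higher and 4 lower (23.7% and 27.2% of all genes), with a median of 0.13 against −0.03 over all genes. The groups did not overlap for 40 genes that were higher and 7 that were lower at 168h, where this held for 25.8% and 29.6% of all genes.

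The 3 called genes are short or rare. Rps29, a small zinc-binding protein of the small subunit, had 24227, 15626 and 16573 against 11442, 11661 and 8858 (0.80, SE 0.16, adjusted p = 1.24e-05), with replicate 1 far above the other 2. Rpl38, on which the translation of some Hox mRNAs depends, had 13331, 10430 and 10441 against 7717, 7793 and 7010 (0.59, SE 0.11, adjusted p = 1.39e-06), with the same replicate highest. Without replicate 1, Rpl38 changed by 0.50 and was no longer called, and Rps29 changed by 0.66. Rpl39l had 124.7, 109 and 125.4 against 55, 65.5 and 72.1 (0.89, SE 0.18, adjusted p = 8.31e-06). Replicate 1 was also the highest at IL3-OHT 168h for Rps27, Rpl39 and Rpl41, but not for Rps6 or Rpl39l. Rpl3 was higher by 0.53 (SE 0.045, adjusted p = 2.43e-20), with 32136, 29417 and 29713, and Rpl12, whose product lies at the base of the stalk, was lower (−0.48, SE 0.087, adjusted p = 9.04e-07). With the reads of its copies added, Rpl12 changed by −0.05 and did not pass the test.

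The third question was how the genes changed after OHT was added to GCSF-treated cells, again with OHT and time not separable. Here the first step was up. At 1h, 69 of the 81 genes were higher than at GCSF 0h by the adjusted p alone and 0 lower (median 0.27, where 12.9% of all genes were higher), although only Rpl3l passed the fold threshold (1 called higher, where 4.01% of all genes were). At 2h 46 were still higher (13.6% of all genes). Rpl24 had 8317, 7805 and 8090 at 0h and 9893, 9758 and 10197 at 1h, with no overlap. Over 1h to 8h 42 genes were higher and 0 lower by the adjusted p alone (12.0% and 11.4% of all genes), and 0 were called either way by limma, edgeR or DESeq2 (3.08% of all genes were called higher by limma and 1.01% lower, 4.09% either way). By the unadjusted p under 0.05, 56 were higher and 0 lower. Rpl39 (0.30, SE 0.058, adjusted p = 1.36e-05), Rpl38 (0.28, adjusted p = 0.00821) and Rps15a (0.24, adjusted p = 0.00454) led, though Rpl38 did not pass the test without replicate 2 (0.24) nor Rps15a without replicate 3 (0.18).

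The genes then declined over days. Over 12h to 72h, 47 were lower and 1, Rpl39l, was higher by the adjusted p alone (20.9% and 21.3% of all genes), with a median of −0.15, and 1, Rpl3l, was called lower (−1.34, SE 0.28, adjusted p = 2.43e-05), where 4.40% of all genes were, and 0 were called higher, where 7.61% were. Over 80h to 168h 77 were lower and 1 higher by the adjusted p alone (of all genes, 28.4% were lower and 4525 of 17414 higher), and 13 were called lower and 1 higher, where 12.1% of all genes were called lower and 11.3% higher. The median was −0.40 against −0.02 over all genes. With equal totals 41 were called lower and 0 higher (18.6% and 8.31% of all genes), with a median of −0.58 against −0.18 over all genes. The lowest median over time, −0.60 at 160h, had 46 genes called lower (13.9% of all genes), and from 160h to 168h 26 rose and 3 fell by the adjusted p alone (9.62% and 10.2% of all genes).

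At 168h in GCSF, Rps6 stood at 10379, 10517 and 9581 against 16155, 15653 and 16727 at GCSF 0h. Rplp0 stood at 26551, 26317 and 25149 against 43961, 42266 and 45224. Rpl12 stood at 457, 455 and 459 against 1107, 993 and 1031, but 94% of the reads of this gene and its copies lie on copies. All 3 genes were lower in every library, with log2 changes of −0.67 (SE 0.047, adjusted p = 1.67e-25), −0.75 (SE 0.051, adjusted p = 1.65e-26) and −1.19 (SE 0.087, adjusted p = 2.05e-24). Of the 81 genes 28 were called lower and 1 higher, where 12.6% of all genes were called lower and 12.1% higher, and 75 were lower and 1 higher by the adjusted p alone (25.7% and 24.8% of all genes). The median was −0.51, a fold of 0.704, while that of all genes was 0.00. With equal totals 53 were called lower and 1 higher (18.6% and 8.88% of all genes), at a median of −0.69 against −0.16 over all genes. All libraries of 168h lay below all of GCSF 0h for 75 genes, where this held for 29.2% of all genes.

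Some members stood apart from the median of the set. Rpl39l rose in GCSF as it did in IL3, to 93.5, 83.5 and 90.7 from 48.1, 39 and 68 (0.81, SE 0.18, adjusted p = 4.75e-05). Rpl3l fell back to 6.89, 11.7 and 12.8 (−1.45, SE 0.38, adjusted p = 0.000619), the level of undifferentiated cells. Rpl32l, one of the 3 genes annotated as a pseudogene, had 6.89, 5.22 and 2.57 against 17.6, 21.2 and 18.6 (−1.84, SE 0.52, adjusted p = 0.00139), within reach of the floor. Rpl38 (−0.18, adjusted p = 0.186) and Rps29 (−0.23, adjusted p = 0.267) did not pass the test. Rpl22, at −1.14 in the pre-treatment, changed by −0.18 (adjusted p = 0.00994).

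Measured from undifferentiated cells, the pre-treatment and 168h of OHT in GCSF together left the genes at a median fold of 0.444 (log2 −1.17, against −0.11 over all genes). Of the 81 genes 75 were called lower and 0 higher, where 23.6% of all genes were called lower and 15.5% higher, 39.1% either way. Rps6 was lower by 1.41 on the log2 scale (−1.41), Rpl12 by 1.72 (−1.72) and Rpl24 by 1.62 (−1.62), the last from 16225, 16637 and 17073 to 5272, 5818 and 5143. The value of Rpl12 is uncertain, since most reads of this gene and its copies lie on copies. Rpl3l (0.27, adjusted p = 0.554) and Rpl6l (−0.95, adjusted p = 0.0665) did not pass the test, and Rpl39l was higher (0.48, adjusted p = 0.0158).

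**Figure D4:**
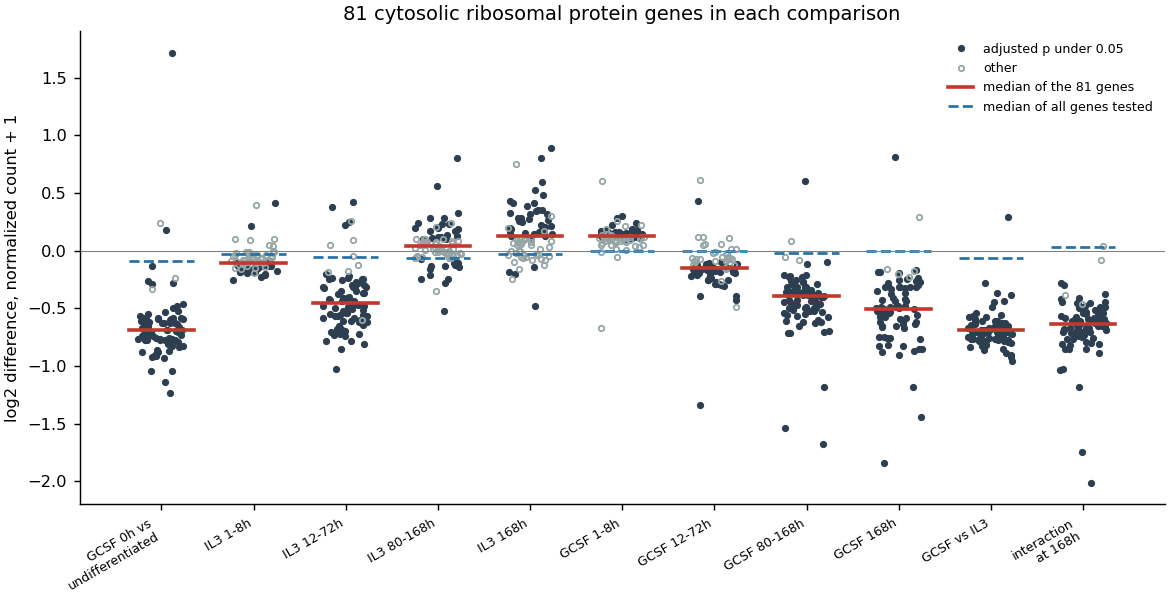
The log2 differences (y axis) of the 81 genes in 11 comparisons (x axis), with 1 point per gene, filled where the limma adjusted p is under 0.05. The red mark is the median of the 81 genes and the dashed blue mark that of all genes tested. The red mark lies below the blue in the pre-treatment, the IL3 early and middle windows, and the GCSF middle and late windows. It is also below at the GCSF endpoint, in the comparison of the courses and in the interaction. At the IL3 endpoint and in the IL3 late and GCSF early windows it lies above.

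Whether a gene changed at all over a course was asked with limma's moderated F test. With its adjusted p under 0.05 and the fold threshold passed against the start at 1 time point or more, 48 changed in IL3 (59.3%, where 69.7% of all genes did) and 51 in GCSF (63%, where 47.7% did). With equal totals the GCSF count was 78, where 52.6% of all genes changed. In GCSF 24 of the 31 small subunit genes and 27 of the 50 large subunit genes were among them, and in IL3 17 and 31.

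The courses were then set side by side at the 25 time points they share. The median difference of GCSF-OHT from IL3-OHT was below 0 at all 25. It was −0.48 at 1h, with 24 genes called lower (19.7% of all genes), and −0.61 at 2h, with 47 (18.8%). It then shrank to −0.14 at 16h, with 0 called by limma and 35 lower by the adjusted p alone (19.1% of all genes), or 42 by the unadjusted p under 0.05. From there it grew to −0.73 at 72h, with 67 called lower (11.8%), −0.98 at 112h with 75 (13.7%) and −1.39 at 128h with 80 (17.1%). It ended at −1.34 at 168h with 77 (16.0%). At 16h the IL3-OHT libraries lie inside the run of libraries that starts at number 61 and the GCSF-OHT libraries outside it, and at 56h, with a median of −0.51, this is reversed.

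Averaged over the 25 time points, 69 genes were called lower in GCSF-OHT than in IL3-OHT and 0 higher, where 15.1% of all genes were called lower and 9.34% higher, and 80 were lower and 1, Rpl3l, higher by the adjusted p alone (0.29, SE 0.076, adjusted p = 0.000285), where 45.3% of all genes were lower by it and 35.2% higher. The median was −0.69, a fold of 0.620, against −0.06 over all genes. With equal totals 35 were called lower (12.1% of all genes), with a median of −0.57 against 0.04 over all genes. Rpl36 (−0.95, SE 0.014, adjusted p = 3.50e-91), Rpl22 (−0.92) and Rpl12 (−0.91) differed most, and Rps27l (−0.28), Rps13 (−0.37, or −0.60 with its copies added) and Rpl39l (−0.38) least among those that were lower. Most reads of Rpl12 and its copies lie on copies, so that its value is uncertain. Rpl36 had 4204, 4289 and 4424 at GCSF-OHT 168h and 12678, 13146 and 13379 at IL3-OHT 168h. At that time all GCSF libraries lay below all IL3 libraries for 79 of the 81 genes, where this held for 29.5% of all genes. With the libraries of that run left out, the median over the other 18 time points was −0.85, and 75 genes were called lower (17.6% of all genes).

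Part of this difference was in place before OHT. The interaction asks whether the change of a gene from its own start to 168h after OHT differed between GCSF and IL3. It was called for 53 of the 81 genes, all lower in GCSF, where 11.3% of all genes were called in that direction and 14.5% in the other, and 77 were lower by the adjusted p alone (21.1% of all genes). The median was −0.64 against 0.03 over all genes. Rpl3 differed most among the abundant genes (−1.18, SE 0.063, adjusted p = 2.23e-34). It went from 20310, 21032 and 21842 to 32136, 29417 and 29713 in IL3 and from 19321, 18837 and 19318 to 12081, 12752 and 11708 in GCSF, so that it rose in one course and fell in the other. Rps29 (−1.03, adjusted p = 9.32e-05) and Rps27 (−0.85, adjusted p = 0.0190) followed, the value of Rps27 being uncertain because most reads of its family lie on copies. Rps13 did not pass the test (0.04, adjusted p = 0.887), nor did Rpl39l (−0.08, adjusted p = 0.830). Most reads of Rps13 and its copies lie on copies, and with these added its interaction turned to −0.37 (adjusted p = 3.11e-06).

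Some members have a relative in the set, which allows a comparison within a pair. Rpl39, at the exit of the tunnel, had 15773, 14379 and 13610 at IL3-OHT 168h and 5347, 5564 and 5256 at GCSF-OHT 168h, from 6761, 6512 and 6795 at GCSF 0h. It was higher in the first (0.43, SE 0.075, adjusted p = 2.55e-07) and lower in the second (−0.31, SE 0.075, adjusted p = 0.000175), whereas Rpl39l was higher in both. Rps27 had 1074, 1047 and 928 at GCSF-OHT 168h against 1852, 1679 and 1616 at GCSF 0h, and Rps27l had 1084, 1185 and 1182 against 1439, 1611 and 1603. Both fell, Rps27 by 0.76 on the log2 scale (−0.76, adjusted p = 0.00229) and Rps27l by less (−0.43, adjusted p = 1.01e-08). The pre-treatment set them apart, with Rps27 at −0.82 (adjusted p = 0.000732) and Rps27l at 0.18. Of the reads of Rps27 and its copies 83.5% lie on copies, so that its level and changes are uncertain. Rpl22l1, the relative of Rpl22 that the naming rule leaves out, was higher after the pre-treatment (0.71), where Rpl22 was lower (−1.14), and lower at the end of the GCSF course (−1.27).

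The medium was renewed in part at 40h, 88h and 136h, with fresh OHT. The first time point after each renewal (48h, 96h and 144h) was compared with the mean of the time points on both sides of it. At 48h, against 40h and 56h, limma called 0 genes of the set in either course, where 0.757% of all genes were called higher and 0.843% lower in IL3 and 0.161% and 0.189% in GCSF. By the adjusted p alone 2 were higher and 9 lower in IL3 (6.74% and 7.87% of all genes) and 9 higher and 0 lower in GCSF (4.62% and 3.80%). By the unadjusted p under 0.05 these were 5 and 19 in IL3 and 18 and 5 in GCSF, and edgeR called 1 gene higher in IL3 and 0 in GCSF. In IL3 the libraries of 56h lie outside the run that starts at number 61 and those of 40h and 48h inside it. Directly from 40h to 48h, 0 were higher and 1 lower in IL3 by the adjusted p alone (2.80% and 3.12% of all genes), and 9 higher and 5 lower in GCSF (8.11% and 6.42%). The excluded groups IL3-OHT 96h and IL3-OHT 144h, left out by the authors and used only here, had 45 genes lower and 2 higher by the adjusted p alone at 96h than at 88h and 104h (median −0.14, where 23.4% of all genes were lower) and 70 lower and 3 higher at 144h than at 136h and 152h (median −0.25, where 23.8% were lower). Called were 0 in the first and 1, Rpl3l, lower in the second, where 8.17% and 6.76% of all genes were called lower. In GCSF, 7 and 9 genes were lower in these comparisons (median −0.07 in each, where 11.1% and 4.68% of all genes were lower). Directly from 88h to 96h 19 were lower in GCSF (median −0.13, where 10.9% of all genes were lower).

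Other genes of translation were read beside these. Mitochondrial ribosomal protein genes, which serve the ribosome inside mitochondria, did not share the fall of the pre-treatment. Of 75, 8 were called higher and 2 lower, with a median of 0.24, against −0.69 for the 81. At the end of the GCSF course 16 were called lower and 1 higher (median −0.38), and between the courses 4 lower (median −0.10). Mrpl18 rose most of these in the pre-treatment (1.01). Of the 17414 genes tested, 2261 were called higher and 3600 lower in the pre-treatment. The counts were 2110 and 2200 at the end of the GCSF course and 1627 and 2635 between the courses. The 16 genes of translation factors whose mRNAs are known to carry the TOP motif had medians near those of the 81 genes in the pre-treatment, at the end of the GCSF course and between the courses. Of these, 9 were called lower in the pre-treatment (median −0.59), 0 at the end of the IL3 course (−0.04), 5 at the end of the GCSF course (−0.51) and 10 between the courses (−0.61). Eef2, the translocation factor, changed by −1.12 in the pre-treatment, Eif4b by −1.13 and Eef1a1 by −1.0. Rack1, a signalling scaffold on the small subunit whose symbol the rule does not catch, changed by −0.94, and Fau, which encodes a ubiquitin-like fusion of a small subunit protein, by −1.16.

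The genes that build ribosomes were low at the end of both courses. Of 46 genes of ribosome biogenesis and RNA polymerase I, 3 were called higher and 5 lower in the pre-treatment (median 0.01), whereas 25 were called lower and 0 higher at IL3-OHT 168h (median −0.65), where 0 of the ribosomal protein genes were called lower. At GCSF-OHT 168h 27 were called lower (median −0.63), and between the courses 0 either way (median −0.16). Of the 17414 genes tested, 2261 were called higher and 3600 lower in the pre-treatment, and 1782 and 2641 at IL3-OHT 168h. At GCSF-OHT 168h 2200 were called lower against GCSF 0h and 4102 against undifferentiated cells. Between the courses 1627 were called higher and 2635 lower. Tsr1, which matures the small subunit, changed by −1.74 at IL3-OHT 168h, and Rrp12 by −1.66. Myc, which activates many of these genes in other work, had a normalized count of 4129 ± 63.9 in undifferentiated cells, 3603 ± 162 at GCSF 0h, 2056 ± 45.2 at IL3-OHT 168h and 2002 ± 77 at GCSF-OHT 168h (SD, n = 3 in each).

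**Figure D5:**
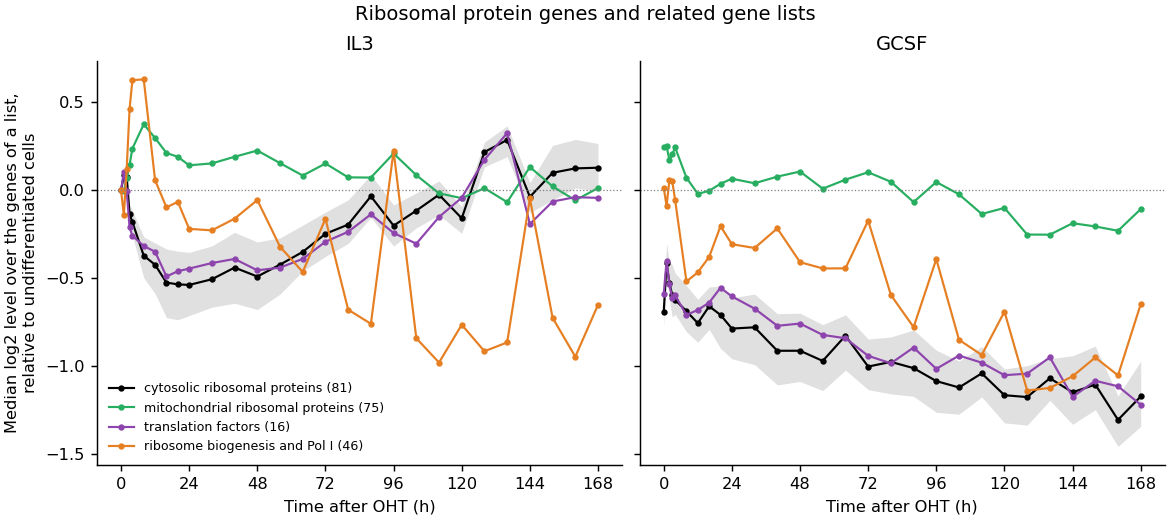
Median log2 level relative to undifferentiated cells (y axis) against hours after OHT (x axis) for the 81 cytosolic ribosomal protein genes (grey band, their interquartile range), 75 mitochondrial ribosomal protein genes, 16 translation factor genes and 46 genes of ribosome biogenesis and RNA polymerase I, in IL3-OHT and in GCSF. The translation factor line runs with the cytosolic line, and the biogenesis line falls late in both courses.

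Across the means of 54 groups, 67 of the 81 genes had a Pearson's r above 0.9 with the median profile of the set, to which each contributes, and the median r was 0.976. The 3 genes under 0.5 were Rpl3l (0.08), Rpl39l (0.40) and Rps27l (0.47). These points share libraries and their scaling, and r is given as a description. Among genes outside the set, the 5 most alike were Rps3a1 (0.993), a small subunit gene whose symbol the rule does not catch, Gm15500 (0.990), a copy of Rpl5, Rps3a3 (0.988), Gm7536 (0.988), a copy of Rpl27a, and Rack1 (0.987). Myc had an r of 0.20. In all, 207 genes of those tested were above 0.9.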

How the data were processed

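PolyA RNA of PUER cell libraries was sequenced by the authors (paired reads of 150 bases). The authors quantified transcripts with Salmon on GRCm38 and scaled each library by a DESeq2 size factor, so that the deposited values are a normalized signal, the reads of a gene over that factor. In every library 100% of values were whole reads (within 1e-06) once the value of a single read was divided out. How transcripts were summed to genes is not given in the sources used here. Groups came from the labels. The GCSF 0h titles name OHT, but their descriptions and the methods place them before it.

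Genes reaching a normalized count of 5 in some fitted library (17414 genes) were tested with limma 3.58.1 in R 4.3.3 on log2(normalized count + 1), with 1 mean per group, a mean-variance trend and Benjamini-Hochberg adjustment over all genes. Windows were 1h to 8h, 12h to 72h and 80h to 168h. IL3-OHT 96h and 144h, excluded by the authors, entered only the fit of the medium renewals. The replicates are the study's biological replicates of 1 line, and those of a time point were seeded in the same plate. The p-values therefore measure the spread between cultures within a plate. They do not hold the spread between plates or between repeats of the experiment. Copies of members were matched with blastn 2.17.0 (at least 90% identity). edgeR 4.0.16 and DESeq2 1.42.0 were run on the recovered reads as alternatives. The named genes were the 3 members highest and the 3 lowest in each comparison among those past the adjusted p, paralogs with their partners, members with a known extra role, every member called where 10 or fewer were, the 5 highest and 5 lowest per length, at most 4 of each other list, Myc, and the 5 genes most like the members' median. Some genes that this rule names are not reported here. The members and lists were chosen with earlier results of these data known. Scripts were tested on simulated data.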

Additional observations from a re-analysis of the deposited data

Results flagged for a closer look

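The change of a gene from the start of OHT treatment to 168h was compared between the courses by the interaction term of the limma fit, and a result is given here because that term passed the threshold. It was called for 53 of the 81 ribosomal protein genes, all with the lower value in GCSF. Of the 17414 genes tested, 1960 were called in that direction and 2520 in the other. Of the genes named for it, Rpl3 had an interaction of −1.18 on the log2 scale, Rpl3l of −1.75 and Rpl32l of −2.01. Rps9 (−0.28), Rpl7a (−0.30) and Rpl34 (−0.38) had the smallest differences among the genes that passed the adjusted p, and these 3 did not pass the fold threshold. Rpl3l and Rpl32l are thinly read, and their interaction did not pass the test without replicate 1 (−1.16 for Rpl3l) and without replicate 3 (−1.21 for Rpl32l).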

How the results depend on the processing

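Counts are of members called, 81 tested unless stated. Scaling to equal totals moved most: the pre-treatment count from 66 to 13, IL3 12h to 72h from 22 to 11, IL3 80h to 168h from 1 to 2, GCSF 80h to 168h from 14 to 41, the GCSF endpoint from 29 to 54, the courses compared from 69 to 35, the GCSF course from 51 to 78, the IL3 renewal at 40h from 0 to 1 and that at 136h from 1 to 0. It also moved the IL3 endpoint from 3 to 2 and the interaction from 53 to 72. These 72 were all lower in GCSF, where 2738 of the 17414 genes tested were called lower and 2032 higher. The pre-treatment change of Rpl3 turned to 0.13 (adjusted p = 0.0104). With edgeR the pre-treatment count was 54, where 2388 of the 17414 genes tested were called higher and 3275 lower. With DESeq2 it was 66, where 2153 were called higher and 3256 lower. The IL3 renewal at 40h also gave 1 with a pseudocount of 5, a mean count of at least 10, only the groups compared or edgeR, and that at 136h gave 0 with a pseudocount of 5, no filter, upper-quartile scaling, only the groups compared or edgeR. Only the groups compared gave 2 over GCSF 12h to 72h. Genes called in any step between neighbouring times numbered 6 in IL3 and 4 in GCSF, the latter 1 with only the groups compared, 2 with edgeR and 2 with DESeq2. The share of all genes called in any step is not given here. These step counts, and those below, are therefore not read as few or many. Leaving out each replicate gave 1 to 3 for IL3 80h to 168h, 1 to 2 for GCSF 12h to 72h, 0 to 1 for the IL3 renewal at 136h, 3 to 8 for the IL3 steps and 2 to 5 for the GCSF steps. Without the 10 highest genes of each library, the share of reads on the members was 7.78% in undifferentiated cells, 5.67% at GCSF 0h, 8.45% at IL3-OHT 168h and 3.74% at GCSF-OHT 168h.

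Some alternatives were chosen after seeing the data. With copies added to members, the steps numbered 2 in IL3 and 2 in GCSF. Rpl12 then stood at −0.0165 (adjusted p = 0.806) and Rps13 at −0.0890 (0.0527) over IL3 1h to 8h, and at 0.0496 (0.319) and 0.0588 (0.165) over 80h to 168h, all opposite in sign to the values without copies. With the run of libraries that starts at number 61 left out, 9 were called over IL3 12h to 72h, and 32 in place of 48 over the IL3 course. With the run kept, 69.7% of all genes changed over that course. The share with the run left out is not given here, so the 32 cannot be set against it. The cause of these changes was not tested. Of 1571 alternatives of values of named genes, 1499 kept direction and side of the threshold, 67 kept direction but no longer passed, and 5 turned. Replicate numbers did not pair the libraries (correlations of same-numbered deviations from −0.118 to 0.031), and with the number as a block the pre-treatment count stayed 66, the comparison of the courses 69 and the interaction 53, with no other count changed.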
